A study of Mus musculus with 24 samples.

Results

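Kinesins, cytoplasmic dynein and dynactin were followed in the cerebral cortex of 7-day-old mice, as mRNAs on polyribosomes and in total RNA. The members were the probe sets whose only gene symbol in the Mouse 430 2.0 annotation starts with Kif, Klc, Dync, Dynl or Dctn followed by its number or letter, without the dynein heavy chain gene Dync1h1. There were 148 such probe sets of 45037 on the array, for 64 genes of 18193. The 24 arrays fell into 4 groups of 6, namely Fmr1 KO polyribosomal, Fmr1 KO total, WT polyribosomal and WT total RNA. All mice were males on the FVB background at postnatal day 7, and the Fmr1 KO mice, littermates of the WT mice, lacked Fmr1, which encodes the RNA-binding protein FMRP. Each lysate was a pool of the cortices of 2 mice and gave 1 polyribosomal and 1 total array. The polyribosomal RNA came from sucrose gradient fractions 10 to 13 of 16, which held mRNAs with 6 or more ribosomes, and the total RNA from the 20% of the cleared lysate kept back before the gradient.

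Kinesins walk along microtubules, most of them towards the plus end, which points to the axon tip in axons. Cytoplasmic dynein is the main motor towards the minus end and needs its cofactor dynactin for long-range transport. In a neuron these motors carry vesicles, mitochondria and RNA granules, FMRP among the granule proteins, between the cell body and the axon and dendrites. Other kinesins build the mitotic spindle or regulate microtubule growth.

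As a check of the labels, the Fmr1 values of Fmr1 KO and WT arrays did not overlap. Its brightest probe set stood at 6.19 ± 0.48 in Fmr1 KO and 9.90 ± 0.21 in WT polyribosomal RNA, and at 6.38 ± 0.16 in Fmr1 KO and 9.66 ± 0.18 in WT total RNA (log2, SD, n = 6 each, two-sided exact permutation p = 0.00216, the smallest that 924 splits allow). All 11 neuronal markers on the array reached the limit of detection used here, a log2 value of 4, as did 6 of 6 astrocyte, 5 of 6 oligodendrocyte lineage and 3 of 5 microglial markers and none of the 5 ependymal or the 2 blood markers. Arrays of one group correlated at a Pearson r of 0.991 to 0.997 in Fmr1 KO polyribosomal, 0.995 to 0.998 in Fmr1 KO total, 0.992 to 0.997 in WT polyribosomal and 0.996 to 0.998 in WT total RNA. Fmr1 KO polyribosomal array 5 and WT polyribosomal array 4 correlated least with their groups, at a mean r of 0.9934 and 0.9932. They also came from the lysates in which the median polyribosomal minus total difference of the motor genes was below 0, at -0.16 and -0.17, while it lay between 0.07 and 0.31 in the other 10. Their part in the results was not tested beyond leaving them out, and the values without them are given beside the counts.

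A motor gene was represented by its brightest probe set, which had the highest average value across all 24 arrays, unless another is named. Testing required a log2 value of 4 or more in 6 or more of the arrays compared. By this rule 37 of the 64 motor genes were tested, with mean log2 values of 4.29 to 13.4, and 27 were not, with means of 2.08 to 3.82. The untested ones were 11 of 13 mitotic kinesins, 9 of 15 interphase kinesins outside the transport families, the kinesin-3 genes Kif13b and Kif28, the dynein light chain genes Dynlrb2 and Dynlt1f, the dynein-2 heavy chain gene Dync2h1, the kinesin light chain gene Klc3 and the kinesin-2 gene Kif17. Because the tissue is a mixture of cells, fewer cells of a type and less RNA per cell cannot be told apart in these values.

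Motor mRNAs were spread to both sides between polyribosomal and total RNA. In both genotypes, most dynactin subunits, most dynein intermediate and light intermediate chains and the tested kinesin light chains were higher in polyribosomal RNA. All tested dynein light chains were lower, and transport kinesins were called in both directions. Of 37 genes, 17 were higher in polyribosomal than in total RNA, 11 lower and 9 not past the threshold in Fmr1 KO, and the counts were the same in WT (limma, adjusted p under 0.05 over all probe sets tested). That is a share of 75.7% called in each genotype, against 66.9% of all 9700 genes tested in Fmr1 KO and 65.9% of 9725 in WT. By direction, 38.7% of all genes were higher and 28.2% lower in Fmr1 KO, and 37.5% higher and 28.4% lower in WT. The median difference was 0.10 over motor genes and 0.09 over all genes in Fmr1 KO, and 0.13 over motor genes and 0.09 over all genes in WT.

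Over single probe sets, 34 of 80 were higher and 30 lower in Fmr1 KO polyribosomal RNA, where 65.9% of all probe sets were called, 37.2% higher and 28.7% lower. In WT, 33 of 80 were higher and 26 lower, where 65.4% of all were called, 36.2% higher and 29.1% lower. Without lysate 5 the Fmr1 KO counts were 32 higher and 27 lower, and without lysate 4 the WT counts were 36 higher and 25 lower. The arrays of the 2 RNA kinds did not overlap for 23 motor genes in Fmr1 KO, with polyribosomal RNA above total for 14 and below for 9, where 42.2% of all 9700 genes tested did not overlap, 24.1% above and 18.1% below. In WT they did not overlap for 21, with 14 above and 7 below, where 40.1% of all 9725 did not, 21.8% above and 18.3% below.

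**Figure D1:**
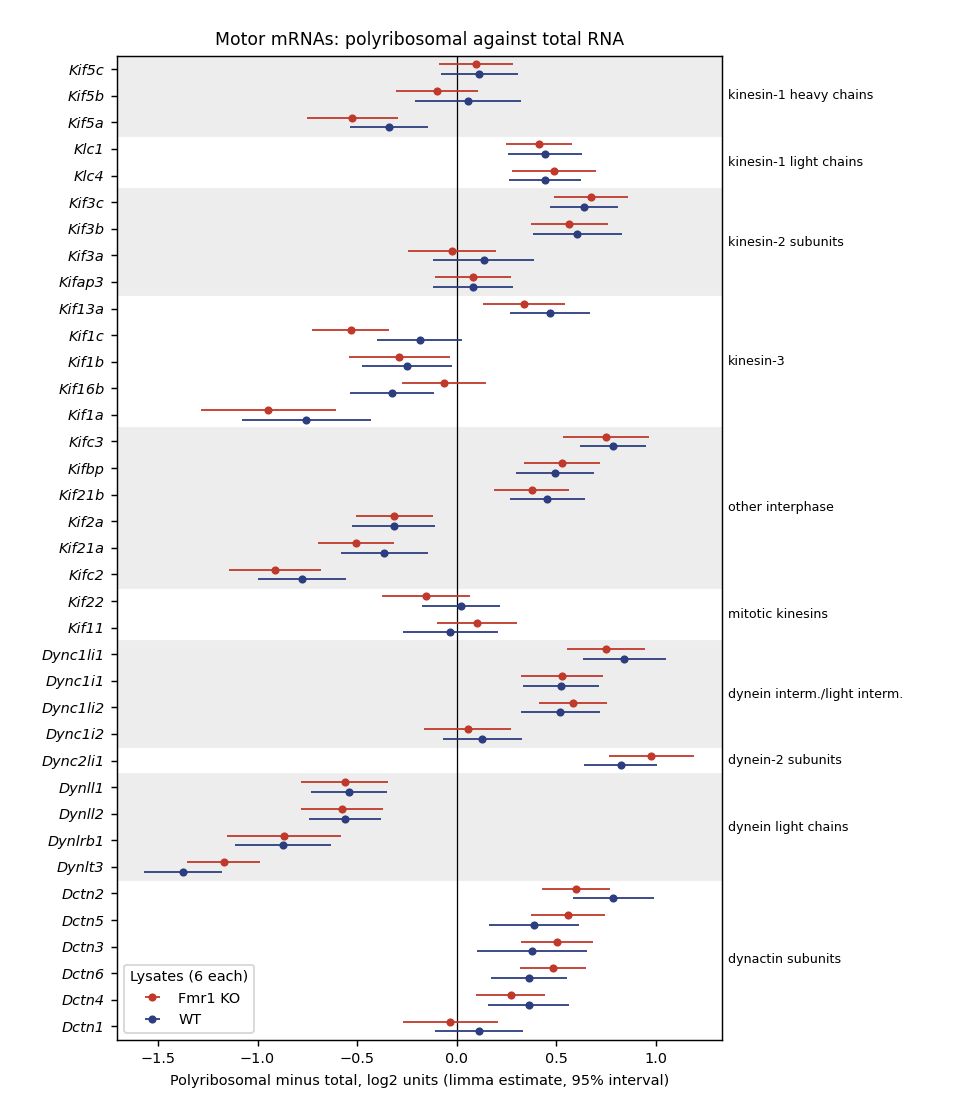
Difference between polyribosomal and total RNA in log2 units for the 37 tested motor genes at their brightest probe set, grouped by role. Points are limma estimates and bars 95% intervals over 6 lysates, with Fmr1 KO in red above WT in blue; all 4 dynein light chains lie left of 0 and 5 of 6 dynactin subunits right of it in both genotypes.

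Among kinesin-1 heavy chains, the motors of fast axonal transport, only Kif5a was called at its brightest probe set. Kif5a, the isoform confined to neurons, had log2 values of 9.77, 10.36 and 10.69 (lowest, median and highest) in Fmr1 KO polyribosomal RNA and of 10.71, 10.89 and 10.98 in Fmr1 KO total RNA. In WT the values were 10.23, 10.49 and 10.73 in polyribosomal and 10.66, 10.82 and 10.91 in total RNA. Each lysate had less Kif5a in its polyribosomal RNA, and the array groups overlapped in WT only. The difference was -0.52 (SE 0.10, adjusted p = 0.000943) in Fmr1 KO and -0.34 (SE 0.09, adjusted p = 0.00570) in WT.

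Kif5b, the heavy chain found in most cell types, had log2 values of 10.99, 11.08 and 11.49 in Fmr1 KO polyribosomal RNA and 11.12, 11.22 and 11.38 in Fmr1 KO total RNA. In WT its values were 10.97, 11.21 and 11.84 in polyribosomal and 11.17, 11.27 and 11.43 in total RNA. The array groups overlapped in both genotypes, and neither difference was called, at -0.10 (SE 0.09, adjusted p = 0.368) in Fmr1 KO and 0.06 (SE 0.12, adjusted p = 0.687) in WT.

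Kif5c, the third heavy chain and enriched in neurons, had log2 values of 12.07, 12.41 and 12.57 in Fmr1 KO polyribosomal RNA and 12.24, 12.27 and 12.41 in Fmr1 KO total RNA. In WT they were 12, 12.49 and 12.61 in polyribosomal and 12.20, 12.33 and 12.40 in total RNA. Here too the groups overlapped, with differences of 0.10 (SE 0.08, adjusted p = 0.327) in Fmr1 KO and 0.11 (SE 0.09, adjusted p = 0.268) in WT.

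The light chains, which link kinesin-1 to its cargo, were both higher in polyribosomal RNA. Klc1 differed by 0.42 in Fmr1 KO and 0.44 in WT, and Klc4 by 0.49 in Fmr1 KO and 0.44 in WT. Each was higher in 6 of 6 lysates of each genotype, with no overlap between the array groups. Klc4 lay near the limit of 4, at 4.41 to 4.80 in Fmr1 KO polyribosomal and 3.92 to 4.29 in Fmr1 KO total RNA. Its WT groups, at 4.26 to 4.64 in polyribosomal and 3.92 to 4.25 in total RNA, were apart by a narrow margin.

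Heterotrimeric kinesin-2 carries vesicles in axons and builds cilia. At the brightest probe sets, its alternative motor subunits Kif3b and Kif3c were higher in polyribosomal RNA and the others were not called. Other probe sets of Kif3a and Kifap3 were called, as given with the comparison of probe sets, so this contrast depends on the probe set. Kif3c had log2 values of 10.46, 10.63 and 10.88 in Fmr1 KO polyribosomal RNA and 9.88, 9.98 and 10.08 in Fmr1 KO total RNA. In WT its values were 10.55, 10.61 and 10.75 in polyribosomal and 9.96, 9.98 and 10.01 in total RNA. Every polyribosomal array was above every total array of its genotype. The difference was 0.67 (SE 0.08, adjusted p = 3.15e-05) in Fmr1 KO and 0.64 (SE 0.08, adjusted p = 2.89e-05) in WT.

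Kif3b had log2 values of 8.84, 8.95 and 9.15 in Fmr1 KO polyribosomal RNA and 8.27, 8.43 and 8.63 in Fmr1 KO total RNA. In WT they were 8.71, 8.98 and 9.19 in polyribosomal and 8.11, 8.39 and 8.55 in total RNA. The groups did not overlap, and the difference was 0.57 (SE 0.09, adjusted p = 0.000159) in Fmr1 KO and 0.61 (SE 0.10, adjusted p = 0.000311) in WT. Their shared partner Kif3a stood at -0.02 in Fmr1 KO and 0.14 in WT, and the cargo-binding accessory subunit Kifap3 at 0.08 in each, none of them past the threshold.

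The kinesin-3 family held called genes on both sides. Kif1a, the motor of synaptic vesicle precursors, differed by -0.95 (SE 0.15, adjusted p = 0.000225) in Fmr1 KO and by -0.76 (SE 0.15, adjusted p = 0.000897) in WT. In WT, lysate 2 stood at 0.013 and the array groups overlapped. A second Kif1a probe set, 1450108_at, gave a smaller difference of -0.32 in WT. It differed from the brightest by 0.43 (SE 0.09, limma, adjusted p = 0.00345). In Fmr1 KO its lysates ran from -1.17 to 0.0075. Kif1b, a motor of mitochondria and synaptic vesicle precursors, stood close to the threshold, at -0.29 (adjusted p = 0.0468) in Fmr1 KO and -0.25 (adjusted p = 0.0496) in WT. In WT this brightest Kif1b probe set missed the threshold in 9 of the 13 alternative analyses, with adjusted p values up to 0.122. A second one, 1423994_at, stood at -0.36 in WT, with lysates from -0.79 to -0.15. Its Fmr1 KO lysates ran from -0.72 to -0.07. In WT it did not differ past the threshold from the brightest (-0.11, limma, adjusted p = 0.173). The Kif1b probe sets 1423995_at and 1451762_a_at stood at -0.25 and -0.44 in WT. Kif13a, a motor of endosomes and transport vesicles, was higher in polyribosomal RNA, by 0.34 in Fmr1 KO and 0.47 in WT, in 6 of 6 lysates of each genotype.

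For 2 members of the family the calls went apart between the genotypes. Kif1c was lower by call in Fmr1 KO, at -0.53 (SE 0.09, adjusted p = 0.000243), and not called in WT, at -0.18 (SE 0.10, adjusted p = 0.115). The early endosome motor Kif16b was not called in Fmr1 KO, at -0.06 (SE 0.10, adjusted p = 0.583), and lower in WT, at -0.32 (SE 0.10, adjusted p = 0.0117). The difference between genotypes was tested for each and did not pass, as given with the genotype comparisons.

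Of the other interphase kinesins, 3 were higher and 3 lower in polyribosomal RNA in each genotype. Across all genes, 38.7% were higher and 28.2% lower in Fmr1 KO, and 37.5% higher and 28.4% lower in WT. The kinesin-14 genes Kifc3 and Kifc2, whose protein class moves towards the minus end, were at opposite ends. Kifc3 had log2 values of 7.13, 7.27 and 7.49 in Fmr1 KO polyribosomal RNA and 6.32, 6.61 and 6.67 in Fmr1 KO total RNA. In WT its values were 7.19, 7.41 and 7.59 in polyribosomal and 6.46, 6.61 and 6.75 in total RNA. All polyribosomal arrays were above all total arrays, by 0.75 on average (SE 0.10, adjusted p = 4.26e-05) in Fmr1 KO and by 0.79 (SE 0.08, adjusted p = 5.43e-06) in WT.

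Kifc2 had log2 values of 7.85, 8.35 and 8.61 in Fmr1 KO polyribosomal RNA and 8.77, 9.24 and 9.50 in Fmr1 KO total RNA. In WT its values were 8.11, 8.36 and 8.83 in polyribosomal and 9.01, 9.19 and 9.38 in total RNA. Here all polyribosomal arrays were below all total arrays. The difference was -0.91 (SE 0.11, adjusted p = 1.77e-05) in Fmr1 KO and -0.78 (SE 0.10, adjusted p = 4.51e-05) in WT.

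The kinesin-4 genes Kif21a and Kif21b, whose proteins act on microtubule growth, were likewise called in opposite directions. Kif21a had log2 values of 8.79, 9.49 and 9.60 in Fmr1 KO polyribosomal RNA and 9.66, 9.93 and 9.97 in Fmr1 KO total RNA. In WT they were 9.26, 9.59 and 9.77 in polyribosomal and 9.81, 9.94 and 10.02 in total RNA. The groups did not overlap, and the difference was -0.50 (SE 0.09, adjusted p = 0.000347) in Fmr1 KO and -0.36 (SE 0.10, adjusted p = 0.00798) in WT. Kif21b was higher, by 0.38 (adjusted p = 0.00225) in Fmr1 KO and 0.45 (adjusted p = 0.000709) in WT.

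Kif2a, which takes microtubule ends apart, was lower, at -0.31 in Fmr1 KO and -0.32 in WT. Kifbp, a kinesin-binding protein that is no motor itself, was higher, by 0.53 in Fmr1 KO and 0.49 in WT.

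Mitotic kinesins were mostly too dim to test. The exceptions were Kif11, the motor that pushes spindle poles apart, and Kif22, a chromosome-bound kinesin. Kif11 stood at 0.10 in Fmr1 KO and -0.03 in WT, and Kif22 at -0.16 in Fmr1 KO and 0.02 in WT, none of them called. Both lay near the limit of 4, Kif11 at 4.01 to 4.62 and Kif22, at 1437716_x_at, at 4.06 to 4.74. The Kif22 probe sets 1451128_s_at and 1423813_at were too dim to test. Their differences ran from 0.23 to 0.62 and from 0.04 to 0.57 over WT lysates. In Fmr1 KO they ran from -0.01 to 0.47 and from -0.02 to 0.45. Of 14 markers of proliferating cells on the array, 5 reached the limit of detection, namely Cdc20, Ccna2, Prc1, Cdk1 and Aurkb. Cdc20 had group means of 6.10 to 6.89, and the rest of these lay at 3.62 to 5.23. Mki67 and Top2a were among the 9 that did not reach it.

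Dynein subunits were divided by class. The intermediate and light intermediate chains, which hold the motor to dynactin and to cargo adaptors, were higher in polyribosomal RNA in 3 of 4 cases. Across all genes, 38.7% were higher in Fmr1 KO and 37.5% in WT. Among these chains the largest difference was that of the light intermediate chain gene Dync1li1. Its log2 values were 10.42, 10.49 and 10.64 in Fmr1 KO polyribosomal RNA and 9.52, 9.75 and 10.03 in Fmr1 KO total RNA. WT cortex gave 10.09, 10.70 and 10.77 in polyribosomal and 9.65, 9.71 and 9.88 in total RNA. The lowest polyribosomal array still exceeded the highest total array of its genotype, and the difference was 0.75 (SE 0.09, adjusted p = 1.91e-05) in Fmr1 KO and 0.84 (SE 0.09, adjusted p = 1.63e-05) in WT.

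The second light intermediate chain gene, Dync1li2, differed by 0.59 in Fmr1 KO and 0.52 in WT. Dync1i1, the intermediate chain gene expressed mainly in neurons, differed by 0.53 in each genotype. The more widely expressed Dync1i2 was not called, at 0.06 in Fmr1 KO and 0.13 in WT.

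Dynein-2 is the separate dynein of transport inside cilia. Of the genes grouped here as dynein-2 subunits, only the light intermediate chain gene Dync2li1 was tested. Its log2 values were 8.52, 8.82 and 9.0 in Fmr1 KO polyribosomal RNA and 7.67, 7.83 and 8.04 in Fmr1 KO total RNA. WT cortex had 8.51, 8.64 and 8.93 in polyribosomal and 7.73, 7.88 and 8.0 in total RNA. Every polyribosomal array exceeded every total array. The difference of 0.98 (SE 0.10, adjusted p = 5.51e-06) in Fmr1 KO was the highest of the motor genes in that genotype, and the one in WT was 0.83 (SE 0.08, adjusted p = 7.45e-06).

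The dynein light chains, small proteins bound to the intermediate chains at the tail of the motor, were lower in polyribosomal RNA in 4 of 4 tested genes. This held for each of their 11 tested probe sets and in 6 of 6 lysates of each genotype. Across all genes, 28.2% were lower in Fmr1 KO and 28.4% in WT. The median over the 4 genes was -0.72 in each genotype, where it was 0.09 over all genes tested.

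Dynlt3, a Tctex-type light chain gene on the X chromosome, had log2 values of 10.25, 10.37 and 10.96 in Fmr1 KO polyribosomal RNA and 11.45, 11.64 and 11.81 in Fmr1 KO total RNA. The WT arrays read 9.93, 10.28 and 10.77 in polyribosomal and 11.48, 11.71 and 11.84 in total RNA. No array of one RNA kind reached into the range of the other. The difference of -1.17 (SE 0.08, adjusted p = 5.00e-07) in Fmr1 KO, and that of -1.37 (SE 0.09, adjusted p = 2.69e-07) in WT, was the lowest of all 37 motor genes in its genotype.

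Dynlrb1, the roadblock light chain gene, had log2 values of 10.64, 11.55 and 11.74 in Fmr1 KO polyribosomal RNA and 12.15, 12.23 and 12.41 in Fmr1 KO total RNA. WT arrays read 10.92, 11.39 and 11.79 in polyribosomal and 12.15, 12.26 and 12.32 in total RNA. The polyribosomal arrays spread over a wider range than the total arrays and stayed below them. The difference was -0.87 (SE 0.13, adjusted p = 0.000120) in Fmr1 KO and -0.87 (SE 0.11, adjusted p = 3.92e-05) in WT.

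The LC8 light chains are bound by many proteins besides dynein. Dynll1 had log2 values of 12.50, 12.94 and 13.19 in Fmr1 KO polyribosomal RNA and 13.43, 13.48 and 13.60 in Fmr1 KO total RNA. For WT the values were 12.79, 12.88 and 13.17 in polyribosomal and 13.44, 13.48 and 13.55 in total RNA. The groups did not overlap, and the difference was -0.56 (SE 0.10, adjusted p = 0.000420) in Fmr1 KO and -0.54 (SE 0.09, adjusted p = 0.000224) in WT.

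Dynll2, the other LC8 gene, had log2 values of 10.48, 10.68 and 10.94 in Fmr1 KO polyribosomal RNA and 11.16, 11.25 and 11.38 in Fmr1 KO total RNA. WT values were 10.45, 10.69 and 10.98 in polyribosomal and 11.18, 11.29 and 11.40 in total RNA. Again no array crossed over, at -0.57 (SE 0.09, adjusted p = 0.000216) in Fmr1 KO and -0.56 (SE 0.08, adjusted p = 0.000128) in WT.

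**Figure D2:**
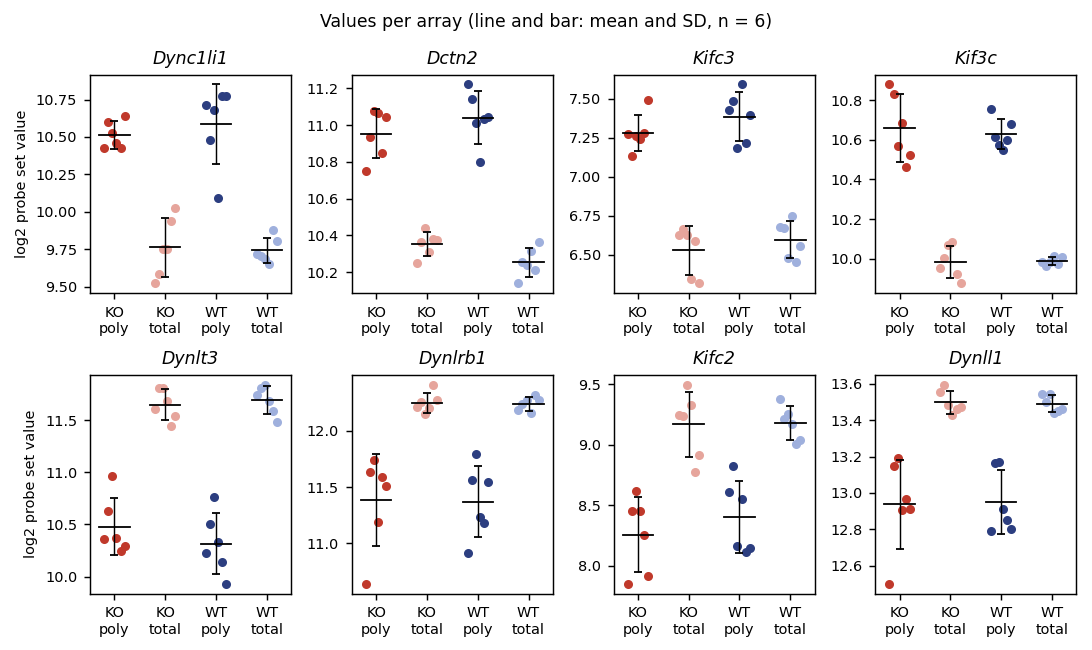
Log2 values of 8 motor genes in each of the 24 arrays, for Fmr1 KO polyribosomal, Fmr1 KO total, WT polyribosomal and WT total RNA from left to right; lines and bars are the mean and SD of 6 arrays, and the axes differ between genes. In the upper row the polyribosomal arrays lie above the total arrays of their genotype and in the lower row below them, as for Dynlt3 with 10.25 to 10.96 in Fmr1 KO polyribosomal against 11.45 to 11.81 in Fmr1 KO total RNA.

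The promoters of the light chain genes are shown because these mRNAs moved together; the arrays measured RNA levels and not promoter use. RefSeq promoter windows (GRCm38.p6, 250 bases before to 50 after a gene's start) were at hand for Dynll1, Dynlrb1 and Dynlt3. The 100 bases before the start are printed 5′ to 3′ on the gene's strand, with the GC box GGGCGG or its reverse complement in capitals. They lie at chr5:115300991-115301090 on the minus strand for Dynll1, chr2:155236433-155236532 on the plus strand for Dynlrb1 and chrX:9662984-9663083 on the minus strand for Dynlt3.
Dynll1: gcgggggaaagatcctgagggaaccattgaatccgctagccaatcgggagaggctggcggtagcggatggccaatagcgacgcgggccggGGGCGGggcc
Dynlrb1: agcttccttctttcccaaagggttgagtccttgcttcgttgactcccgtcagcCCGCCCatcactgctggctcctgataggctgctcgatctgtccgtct
Dynlt3: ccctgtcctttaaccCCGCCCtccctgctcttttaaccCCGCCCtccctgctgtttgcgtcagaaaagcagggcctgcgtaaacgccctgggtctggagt
The GC box, searched on both strands, was present in all 4 windows of these 3 genes, as Dynlrb1 has a second start. It was present in 37 of 58 windows of 51 motor genes, or 63.8%, and in 35.7% of 32851 windows of all genes. For the 27 tested motor genes with a window, the GC box was present in 23 of 33, or 69.7%. The letters CCAAT were found in 46.6% of motor windows and 37.4% of all windows, and TATAAA in 10.3% of motor windows and 13.6% of all windows. A match describes the letters only.

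Dynactin subunits were higher in polyribosomal RNA in 5 of 6 cases in each genotype. Across all genes, 38.7% were higher in Fmr1 KO and 37.5% in WT. Dctn2, or dynamitin, which joins the shoulder of dynactin to its filament, had log2 values of 10.75, 10.99 and 11.07 in Fmr1 KO polyribosomal RNA and 10.25, 10.37 and 10.44 in Fmr1 KO total RNA. The WT values were 10.80, 11.04 and 11.22 in polyribosomal and 10.14, 10.25 and 10.36 in total RNA. The polyribosomal arrays were all above the total arrays, with a difference of 0.60 (SE 0.08, adjusted p = 3.72e-05) in Fmr1 KO and 0.79 (SE 0.09, adjusted p = 2.27e-05) in WT.

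The pointed-end subunits Dctn4, Dctn5 and Dctn6 cap the actin-like filament. They differed by 0.27, 0.56 and 0.49 in Fmr1 KO and by 0.36, 0.39 and 0.36 in WT. Dctn3, the small shoulder subunit, differed by 0.50 (adjusted p = 0.000209) in Fmr1 KO, where 6 of 6 lysates were higher. In WT it differed by 0.38 (adjusted p = 0.0203) with 4 of 6 lysates higher, and the call was lost without lysate 2, 4 or 6, at adjusted p values of 0.0694, 0.0653 and 0.0574. Dctn1, the largest subunit and the one that binds microtubules, was not called, at -0.03 in Fmr1 KO and 0.12 in WT. Dynactin subunits with other gene names gave 3 higher of 4 tested in each genotype. These were Capzb, Actr1a and Capza2, at 0.76, 0.39 and 0.45 in Fmr1 KO and 0.72, 0.39 and 0.30 in WT, while Capza1 was not called, at -0.07 in Fmr1 KO and -0.18 in WT. The share higher over all genes was 38.7% in Fmr1 KO and 37.5% in WT.

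Adaptors and regulators that couple the motors to cargo were mixed, with 10 higher, 5 lower and 11 not past the threshold of 26 tested in Fmr1 KO, and 11 higher, 4 lower and 12 not past of 27 in WT. Over all genes tested, 38.7% were higher and 28.2% lower in Fmr1 KO, and 37.5% higher and 28.4% lower in WT. The median difference was 0.14 over the adaptors and 0.09 over all genes in each genotype. Bicd2, which links dynein to dynactin and cargo, differed by 0.83 in Fmr1 KO and 0.89 in WT. The huntingtin-associated adaptor gene Hap1 differed by 0.90 in Fmr1 KO and 0.88 in WT, and the kinesin-1 adaptor gene Fez1 by 0.47 in each. Mapk8ip1, which encodes a kinesin-1 scaffold, went far the other way, at -2.98 in Fmr1 KO and -2.73 in WT.

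The pattern was much the same in the genotypes, which share no arrays. Of the 37 motor genes, 17 were higher in polyribosomal RNA in both, 10 lower in both and 8 not called in either. Kif1c and Kif16b were the other two. Across these genes the differences of Fmr1 KO and WT correlated at a Pearson r of 0.97 and a Spearman rho of 0.96, given as a description because genes are not independent replicates. The same figures were not computed over all genes, so they do not set the motors apart. Of all genes, 66.9% were called in Fmr1 KO and 65.9% in WT. The genotype difference in polyribosomal minus total was called for 0% of all 18544 probe sets.

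Probe sets of one gene did not always give the same difference. In WT, 43 additional motor probe sets of 24 genes were compared with the brightest of their gene, lysate by lysate, and 16 in 11 genes differed past the threshold, or 37.2%, where 44.5% of 6729 such probe sets of all genes did. A difference past the threshold together with a sign opposite to that of the brightest was found for 3 of the 43, or 6.98%, where 14% of the 6729 had both.

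Kif3a was the clearest instance. Its brightest probe set 1449841_at had log2 values of 9.03, 9.55 and 9.85 in WT polyribosomal RNA and 9.17, 9.34 and 9.44 in WT total RNA, a difference of 0.14 with overlapping groups. At 1436560_at the values were 7.28, 7.93 and 8.26 in WT polyribosomal RNA and 8.26, 8.62 and 8.74 in WT total RNA, a difference of -0.74. At 1455652_at they were 8.19, 8.67 and 8.92 in WT polyribosomal and 9.02, 9.06 and 9.20 in WT total RNA, a difference of -0.44. At both of these all polyribosomal arrays lay below all total arrays, at 1436560_at by a narrow margin. They differed from the brightest by -0.88 (SE 0.11, adjusted p = 0.000231) and -0.58 (SE 0.08, adjusted p = 0.000632), while 1420375_at differed the other way, by 0.25 (adjusted p = 0.0127). In Fmr1 KO the differences between polyribosomal and total RNA were -0.02 at the brightest, -0.92 at 1436560_at, -0.66 at 1455652_at and 0.07 at 1420375_at.

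For Kif5b, 1418428_at had log2 values of 9.66, 9.96 and 10.65 in WT polyribosomal RNA and 10.20, 10.27 and 10.70 in WT total RNA. Its difference of -0.29 was not itself called (adjusted p = 0.0613), but it differed from that of the brightest probe set by -0.34 (SE 0.06, adjusted p = 0.00152) and was the lower one in 6 of 6 lysates. In Fmr1 KO the same probe set was called lower, at -0.47 (adjusted p = 0.000879).

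Elsewhere a second probe set gave a larger difference of the same sign. The Kif5c probe set 1422945_a_at stood at 0.78 in Fmr1 KO and 0.86 in WT, with 6 of 6 lysates higher, against 0.10 in Fmr1 KO and 0.11 in WT at the brightest. The Kifap3 probe set 1417181_a_at stood at 0.75 in Fmr1 KO and 0.90 in WT, against 0.08 in each at the brightest. For Dynll1, 1440278_at stood at -1.36 in WT, against -0.54 at the brightest. Kif3a, Kif5c and Kifap3, not called at their brightest probe set, thus had another probe set called in both genotypes, while none of the 5 tested Kif5b probe sets was called in WT. Which transcript ends or isoforms the probe sets read was not analysed here.

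**Figure D3:**
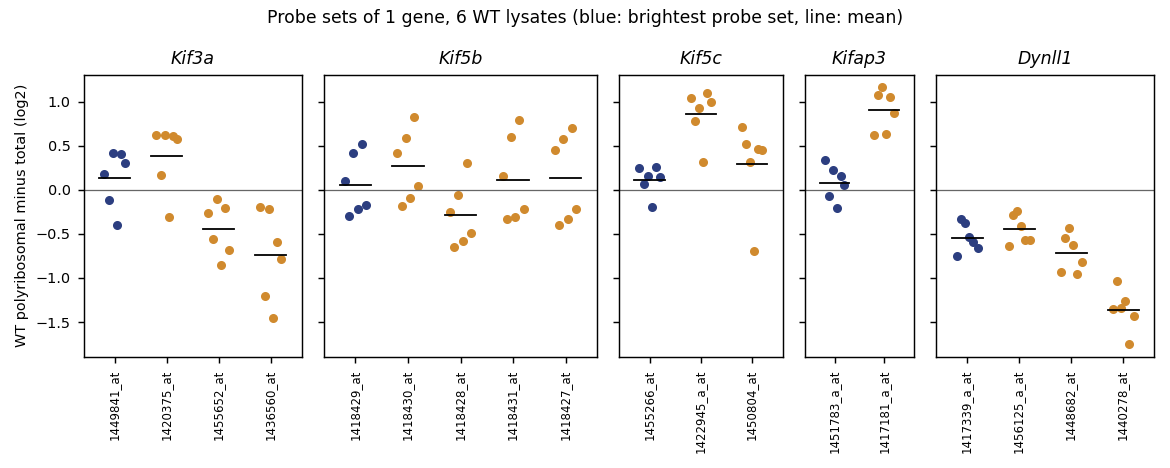
Polyribosomal minus total difference in log2 units in each of the 6 WT lysates, for all tested probe sets of 5 motor genes, with the brightest in blue, the others in orange and a line at the mean. Within Kif3a the means run from 0.38 to -0.74, while all points of the 4 Dynll1 probe sets lie below 0.

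The loss of Fmr1 was then asked about directly. None of the 81 motor probe sets tested in polyribosomal RNA differed between Fmr1 KO and WT by limma, where 0.017% of all 17687 tested did. An unadjusted p under 0.05 was found for 4, or 4.94%, against 2.67% of all. Each of the 4 had a lower value in Fmr1 KO. In total RNA none of 79 differed, where 0.0392% of 17850 did. Here 4, or 5.06%, had an unadjusted p under 0.05, against 5.00% of all, and 1 of them was higher and 3 lower. The median Fmr1 KO minus WT difference in polyribosomal RNA was -0.05 over motor genes and 0.01 over all genes. Of the 37 motor genes, 23 were below 0 and 14 above, where 53.8% of all 9664 genes were above 0. In total RNA the median was -0.02 over motor genes and -0.01 over all genes. There too 23 of 37 were below 0 and 14 above, where 44.6% of all 9690 genes were above 0. Without Fmr1 KO lysate 5 and WT lysate 4 the medians were -0.06 and -0.005.

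The 95% intervals describe the uncertainty of each gene's difference, taken gene by gene and not adjusted for the number of genes. They are no joint bound on all motor genes. In polyribosomal RNA they lay within 0.5 log2 units of 0 for 34 of 37 motor genes, and the farthest bound was 0.69 away from 0, for Kif1a. In total RNA all 37 lay within 0.5, with a farthest bound of 0.37, for Kif13a. The summed level of the 11 neuronal markers was 15.4 to 15.6 (log2) in Fmr1 KO and 15.5 to 15.6 in WT polyribosomal arrays, and 15.3 to 15.4 in both genotypes in total arrays. Their median Fmr1 KO minus WT difference was -0.01 in polyribosomal and -0.002 in total RNA. It was -0.15 and -0.04 over astrocyte, -0.13 and -0.10 over oligodendrocyte lineage and -0.03 and -0.29 over tested microglial markers. None of these markers was called, and a difference in cell composition was not tested.

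Kif13a had the smallest p in polyribosomal RNA. Its brightest probe set 1455746_at had log2 values of 7.34, 7.5 and 7.77 in Fmr1 KO and of 7.73, 7.84 and 8.06 in WT polyribosomal RNA, and the groups overlapped narrowly. In total RNA the values were 7.05, 7.18 and 7.31 in Fmr1 KO and 7.26, 7.37 and 7.61 in WT. The differences were -0.36 (SE 0.10, unadjusted p = 0.00285, adjusted p = 0.9999) in polyribosomal and -0.23 (SE 0.07, unadjusted p = 0.00481, adjusted p = 0.817) in total RNA. A second probe set, 1447853_x_at, was dimmer, with 4.30, 4.67 and 5.0 in Fmr1 KO and 4.62, 5.22 and 5.29 in WT polyribosomal RNA. It stood at -0.39 (unadjusted p = 0.0180) in polyribosomal and -0.29 (unadjusted p = 0.0475) in total RNA. Its total RNA values lay around the limit of 4, at 3.52 to 4.08 in Fmr1 KO and 3.92 to 4.71 in WT. More WT than Fmr1 KO arrays reached that limit, so its total RNA value is no separate support for Kif13a. Neither probe set passed the adjusted test in either RNA kind.

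The third in polyribosomal RNA was Kif3a at 1420375_at, with log2 values of 8.28, 8.84 and 9.15 in Fmr1 KO and 8.63, 9.28 and 9.54 in WT, a difference of -0.38 (SE 0.17, unadjusted p = 0.0417) that was not called. At its brightest probe set Kif3a stood at -0.16. Both had overlapping groups.

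In total RNA the smallest p was that of Kif21a at 1450738_at, with log2 values of 7.20, 7.29 and 7.33 in Fmr1 KO and 7.35, 7.46 and 7.67 in WT. All Fmr1 KO arrays lay below all WT arrays. The genotypes' arrays did not overlap, in either direction, for this 1 of 79 motor probe sets in total RNA, where 0.325% of all probe sets tested did not, and for none of 81 in polyribosomal RNA, where 0.119% did not. The difference of -0.21 (SE 0.06, unadjusted p = 0.00341) did not pass (adjusted p = 0.766), and the brightest probe set of Kif21a stood at -0.04. Kif3b at 1420986_s_at had values of 7.0, 7.13 and 7.39 in Fmr1 KO and 6.64, 6.98 and 7.06 in WT total RNA. Its difference of 0.23 (SE 0.08, unadjusted p = 0.0147, adjusted p = 0.93) was not called, and its brightest probe set stood at 0.07.

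The last comparison set the 6 polyribosomal minus total differences of Fmr1 KO against the 6 of WT. None of 81 motor probe sets was called by limma, where 0% of all 18544 were. An unadjusted p under 0.05 was found for 1, or 1.23%, against 2.38% of all. That one was Kif1c, whose polyribosomal minus total difference was -0.53 in Fmr1 KO and -0.18 in WT, a genotype difference of -0.35 (SE 0.13, unadjusted p = 0.0149, adjusted p = 0.999). Its log2 values were 4.34, 4.68 and 4.84 in Fmr1 KO polyribosomal and 5.06, 5.21 and 5.28 in Fmr1 KO total RNA, and 4.60, 4.95 and 5.10 in WT polyribosomal and 4.88, 5.03 and 5.35 in WT total RNA, not far above the limit of 4. For Kif16b the genotype difference was 0.26 (SE 0.14, unadjusted p = 0.0731) and for Dynlt3 0.20 (SE 0.11, unadjusted p = 0.0932), neither past the threshold. The 95% interval lay within 0.5 log2 units of 0 for 34 of 37 motor genes.

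**Figure D4:**
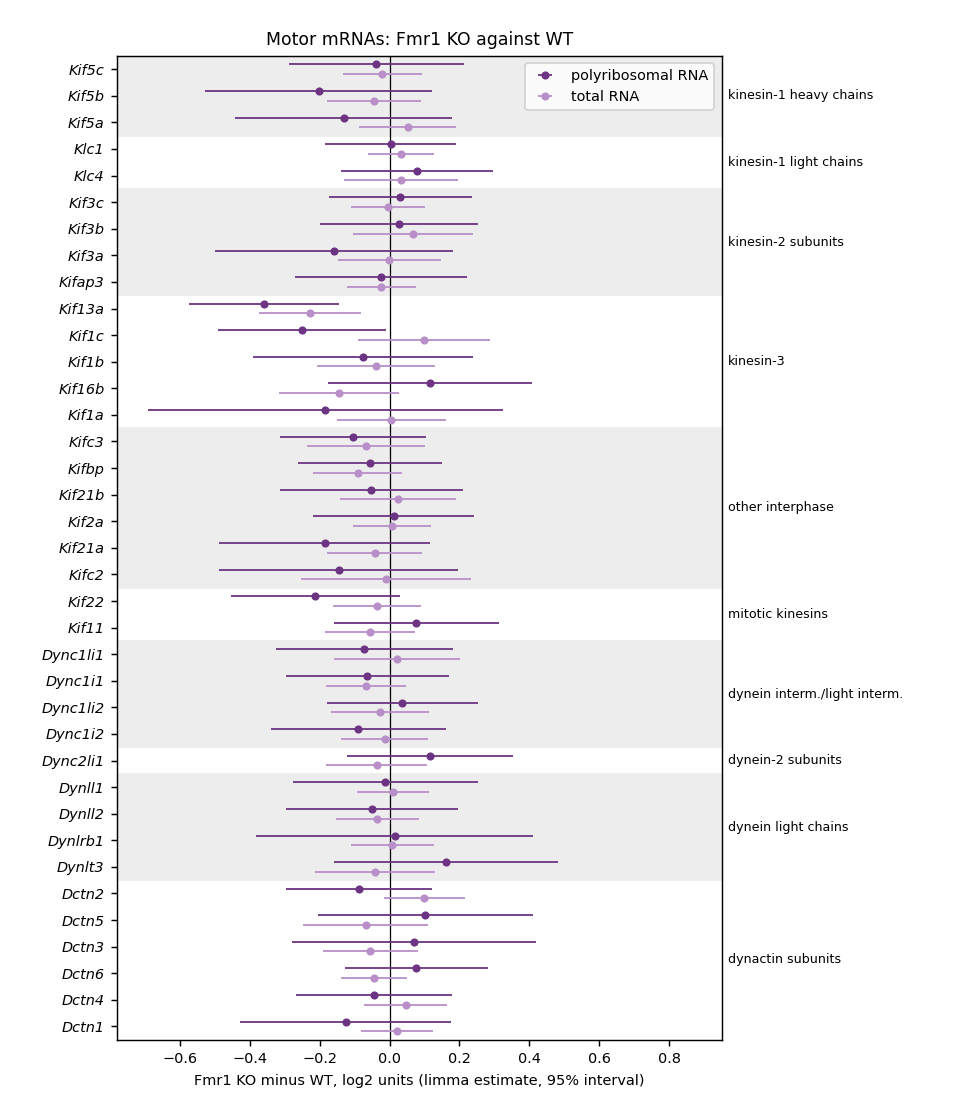
Fmr1 KO minus WT in log2 units for the 37 tested motor genes at their brightest probe set, grouped by role, in polyribosomal RNA (dark) and total RNA (light). Points are limma estimates and bars 95% intervals over 6 arrays a group; none of the genes passed the adjusted threshold, and Kif13a, at -0.36 in polyribosomal and -0.23 in total RNA, is the only one whose intervals exclude 0 in both.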

How the data were processed

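RNA of mouse cortex was measured on 24 Affymetrix Mouse 430 2.0 arrays, from 10 µg of cRNA each. The authors deposited log2 values (a scale judged from their range) made with GCRMA, per the submitters' processing notes; its version, and whether all arrays were normalized together, are not given in the sources used here. GCRMA sets arrays to one distribution, so a difference is relative to the other RNAs of an array. Of the probe sets, 34945 had 1 symbol, 932 several and 9160 none. In addition, 4 probe sets with several symbols name a motor gene and are no members. All 64 motor genes were found in RefSeq by gene ID.

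Fits with limma (version 3.58.1, R 4.3.3, lmFit with eBayes) were two-sided and covered all probe sets that reached a log2 value of 4 in 6 or more of the arrays compared. Their p-values were adjusted together by Benjamini-Hochberg, with a threshold of 0.05. Polyribosomal and total RNA were compared within a genotype with the lysate as a block, as both came from 1 lysate per the labels' protocols. Genotypes were compared within an RNA kind without a block, and by the difference between polyribosomal and total RNA in each of the 12 lysates. Residuals of arrays of one number correlated at 0.156 to 0.474 between Fmr1 KO polyribosomal and total RNA, and at 0.021 to 0.525 in WT. Between Fmr1 KO and WT they did so at -0.14 to 0.63 in polyribosomal and 0.13 to 0.53 in total RNA, and the labels do not say that a number marks a littermate pair.

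Members, lists and tests were chosen with earlier results of these data known. Values per array were given for the 6 highest and 6 lowest motor genes called in WT polyribosomal against total RNA and moving one way in 6 of 6 lysates, the kinesin-1 heavy chains, probe sets of opposite sign within a gene, and the 3 smallest p values of each genotype comparison. Alternatives were other dim-probe limits, scalings, probe set kinds, fits, blocks and leaving out each number. Leaving out Fmr1 KO lysate 5 and WT lysate 4 together was added after seeing the data. The plots were made in Python 3.11.15 with matplotlib 3.10.9.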

Additional observations from a re-analysis of the deposited data

Results flagged for a closer look

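In 6 of 104 groups of 6 arrays, 1 array stood apart from the others by more than Dixon's critical value for the gap as a share of the group's range; chance flags about 1 in 20 such groups. The brightest Kif21a probe set was low in the number 5 lysate of Fmr1 KO in both RNA kinds, at 8.79 in polyribosomal RNA, where the others lay at 9.37 to 9.60, and at 9.66 in total RNA, where the others lay at 9.89 to 9.97. Kif5c was low in WT polyribosomal array 4, at 12 against 12.46 to 12.61, and high in Fmr1 KO total array 3, at 12.41 against 12.24 to 12.29. Kif5b was high in Fmr1 KO polyribosomal array 3, at 11.49 against 10.99 to 11.14. Kif3b at 1420986_s_at was high in WT polyribosomal array 1, at 8.02 against 7.45 to 7.64.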

How the results depend on the processing

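The counts of motor probe sets called between polyribosomal and total RNA stayed within 1.5 times of 64 in Fmr1 KO and 59 in WT under all alternatives run but 1. In WT, without probe sets of the _s_at, _x_at, _a_at and _g_at kinds, 39 were called, 24 higher and 15 lower, because fewer were tested. Leaving out each number in turn gave 56 to 62 calls in Fmr1 KO and 53 to 61 in WT. The medians over motor genes then ran from 0.06 to 0.15 in Fmr1 KO and from 0.08 to 0.21 in WT, and from -0.08 to -0.01 for Fmr1 KO minus WT in polyribosomal and from -0.04 to -0.01 in total RNA. Probe sets that differed from the brightest of their gene numbered 12 to 13 without 1 lysate and 16 under the other settings. With the replicate block the genotype comparisons and the interaction gave 0 calls each, and they gave 0 under all other alternatives. With no replicate block 62 probe sets were called in Fmr1 KO and 57 in WT. The sign turned only for genes not called in WT polyribosomal against total RNA: for Kif11 to 0.023 with quantile normalization and over a range of -0.11 to 0.043 leaving out each number, for Kif22 over a range of -0.019 to 0.079 and for Kif5b of -0.036 to 0.13; the cause was not tested. Without WT replicate 4, Dctn1 (0.21, adjusted p = 0.0324) and Kif3a (0.24, adjusted p = 0.0479) became called. An intended comparison with protein length was not run, as no protein table was used here. The number of arrays limits what can be seen: the median 95% half-width of a genotype difference over motor genes was 0.25 in polyribosomal and 0.14 in total RNA.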
